A study of Mus musculus with 12 samples.

Results

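Srebf1 encodes SREBP1, the transcription factor that switches on fatty acid synthesis, and is described here with 9 enzymes that make, desaturate or elongate fatty acids or place them in phospholipids. The enzymes are Acly, Acaca, Fasn, Scd1, Scd2, Fads1, Elovl5, Elovl6 and Lpcat3. The 10 genes were taken by symbol from a list of the pathway and are 10 of the 24728 genes in the deposited table. All 10 passed the filter on low counts and were among the 13414 genes tested.

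The genes were followed in mouse bone-marrow derived macrophages from ex vivo assays around dissociated brain tumor, in a series whose title concerns myelin that macrophages recycle in brain cancer. Per the labels, dTomato+ macrophages were sorted and their messenger RNA was sequenced from small inputs of total RNA. The groups are named Full Tumor, Tumor without Myelin, Myelin Alone and Control, with 3 libraries each, and each group holds 1 library of the mn numbers 957, 958 and 016. The labels give no genotype, strain, age or exposure time for the macrophages, and do not say what Control macrophages received, which tumor model supplied the material or what mn stands for. No label ties the 3 libraries of a group to separate animals or cultures. The p-values below therefore describe the spread among these libraries, part or all of which may be technical. Values below follow the order 957, 958, 016 wherever 3 are given for a group.

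As background, SREBP1 is made as a precursor in the endoplasmic reticulum and is cleaved to a form that enters the nucleus, a step that sterols and INSIG proteins hold back. The liver X receptors (LXRs), which respond to oxysterols, raise transcription of Srebf1 and of several of its target enzymes. In macrophages this pathway supplies unsaturated fatty acids for membranes and for cholesterol esters, and the LXRs also drive cholesterol export and Lpcat3.

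Libraries held 17071673 to 21689624 counts, and levels are given as CPM, the count of a gene relative to the library total after TMM scaling, which sets the bulk of the genes level between libraries. All 8 macrophage identity markers were present, with a summed level of 14895 to 17459 CPM in Full Tumor, 16472 to 18146 in Tumor without Myelin, 13282 to 15516 in Myelin Alone and 13320 to 15318 in Control. The summed level of 5 oligodendrocyte markers, 110.2 to 161 CPM over all libraries, was mostly Cnp and Mbp, with means of 69.0 and 59.3 CPM. Mag averaged 5.12 CPM and was at 0 in 0 libraries. Mobp averaged 0.315 CPM and was at 0 in 6 of 12 libraries, and Ugt8a averaged 0.0152 CPM and was at 0 in 11. In such bulk libraries, fewer cells of a type and less RNA per cell cannot be told apart.

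None of the 10 genes passed the test in any of the 7 comparisons made, and most differences lay within the spread between libraries. The largest fold changes against Control were of Scd2, 1.91-fold higher in Full Tumor than in Control, and of Elovl6, at 0.449 of the Control level in Myelin Alone and 0.492 in Full Tumor. Lpcat3 was above Control in every same-numbered pair in each of the other groups, and Fasn and Srebf1 were lower in Full Tumor than in Control in all 3 pairs. Acly, Acaca, Scd1, Fads1, Elovl5 and Elovl6 showed no direction shared by the 3 numbers in Full Tumor against Control.

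The test was edgeR's quasi-likelihood test on all 12 libraries with group as the only term, adjusted by Benjamini-Hochberg over 13414 genes. It called 0 of 10 members in Full Tumor against Control, where it called 0% of all genes, and likewise 0 of 10 beside 0% in Tumor without Myelin against Control, in Myelin Alone against Control, in Full Tumor against Tumor without Myelin and in the interaction of myelin and tumor. The pooled myelin effect, which sets Full Tumor and Myelin Alone against Tumor without Myelin and Control, also called 0 of 10 members and 0% of genes. The pooled tumor effect, Full Tumor and Tumor without Myelin against Myelin Alone and Control, called 0 of 10 members and 0.0745% of genes. The lowest adjusted p of a member over the 7 comparisons in edgeR was 0.642, for Scd2 in the pooled tumor effect. At an unadjusted p under 0.05 stood 1 member in Full Tumor against Control (Scd2, among 560 such genes), 1 in the pooled myelin effect (Elovl6, among 321), 1 in the pooled tumor effect (Scd2, among 775) and 0 in the other comparisons. DESeq2 and limma-voom with group as the only term called 0 members as well.

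With the mn number added to the edgeR fit as a block, 0 of 10 members were called again. The blocked fit called 0.813% of all genes in Full Tumor against Control, 0.745% in Tumor without Myelin against Control, 0.0373% in Myelin Alone against Control, 0.112% in the pooled myelin effect, 2.25% in the pooled tumor effect and 0% in both remaining comparisons. The lowest adjusted p of a member in the blocked edgeR fit was 0.186, again for Scd2 in the pooled tumor effect. Unadjusted p-values under 0.05 in that fit were reached by 3 members in Full Tumor against Control (Scd2, Lpcat3 and Fasn, among 1319 genes), 3 in the pooled myelin effect (Lpcat3, Elovl6 and Fasn, among 957) 1 in Myelin Alone against Control (Lpcat3, among 810), 1 in the pooled tumor effect (Scd2, among 1702) and 0 in the other comparisons. DESeq2 with the same block called 1 member, Scd2, in Full Tumor against Control and in the pooled tumor effect. The members' median log2 fold change against Control was -0.05 in Full Tumor, -0.02 in Tumor without Myelin and -0.18 in Myelin Alone. These values have group as the only term, and medians over all tested genes were 0.00 to 0.01. Lower in Myelin Alone in that fit were 7 of 10 members, beside 6541 of 13414 tested genes.

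**Figure D1:**
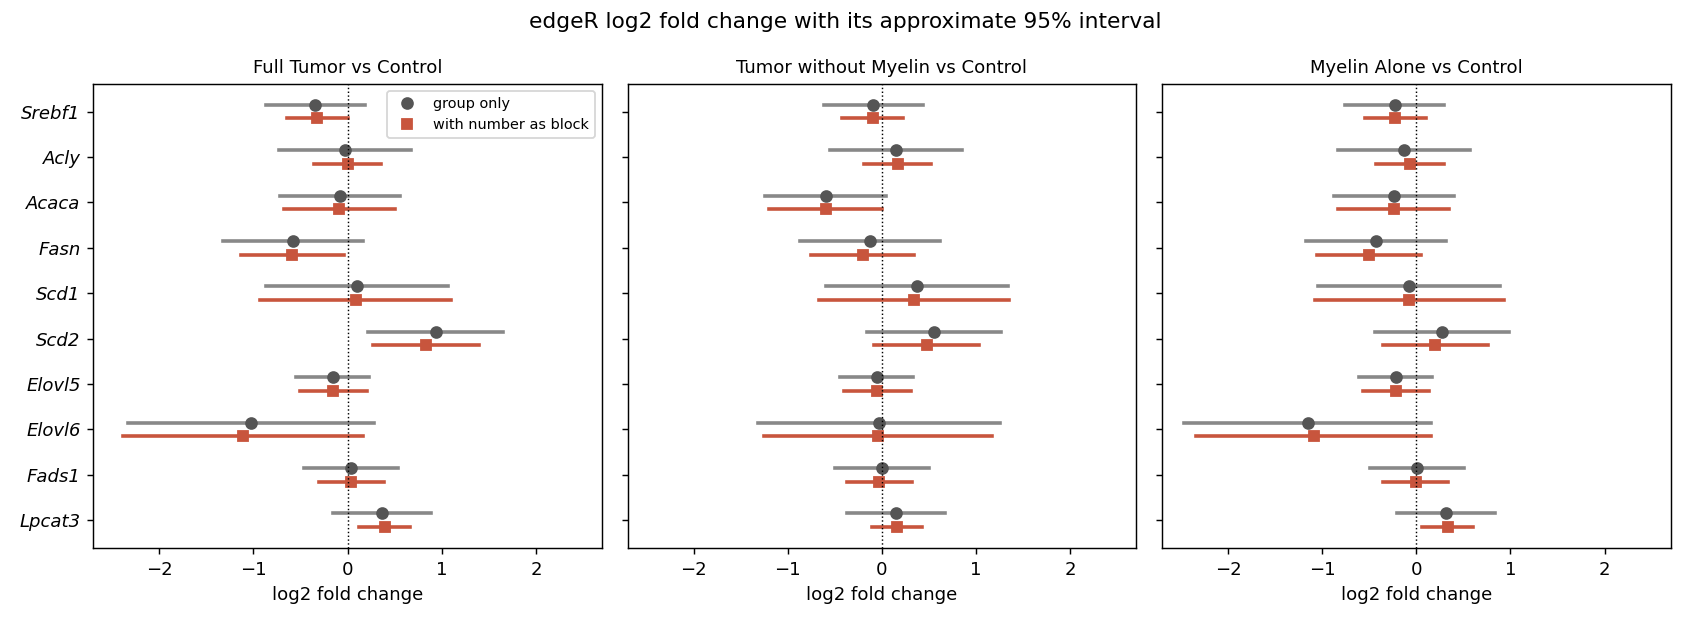
Log2 fold change of the 10 genes (x axis; above 0 means higher in the group named first) with an approximate 95% interval, in the 3 comparisons with Control, which share the Control libraries. Grey points are edgeR with group only and red squares edgeR with the mn number as a block; only Scd2 in Full Tumor has a group-only interval that leaves out 0, from 0.22 to 1.65.

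Srebf1, the regulator, measured 42.4, 44.7 and 36.4 CPM in Full Tumor, 41.8, 63.8 and 41.1 CPM in Tumor without Myelin, 41.3, 54.0 and 38.0 CPM in Myelin Alone and 57.8, 60.9 and 37.8 CPM in Control. The Full Tumor libraries kept within a narrow range below both Control libraries 957 and 958, but Control library 016 lay among them, so the groups overlapped. Full Tumor averaged 41.2 ± 4.28 CPM and Control 52.2 ± 12.5 CPM (SD, n = 3 each), a log2 fold change of -0.34 ± 0.24 (SE, interval -0.87 to 0.18) that edgeR did not call. By number, the log2 difference was -0.45, -0.45 and -0.05, lower in 3 of 3. In Myelin Alone the log2 fold change against Control was -0.23 ± 0.24, with 2 of 3 numbers lower, and the pooled myelin effect was -0.24 ± 0.17, lower in 3 of 3 numbers. Full Tumor against Tumor without Myelin gave -0.25 ± 0.24, with library 957 slightly higher. Srebf1 is on chromosome 11 of mm10 at 60199089-60222581, minus strand, and overlaps the antisense gene Rai1. No source used here states whether counting used strand, and reads of that overlap cannot be assigned to either gene. The same holds for Acaca, Elovl6 and Lpcat3 with their antisense neighbours Gm11437, Gm35986 and Emg1.

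Promoter windows of 300 bases, from 250 before to 50 after a RefSeq transcription start on GRCm38.p6, were found for 7 of the 10 members, all but Scd1, Scd2 and Fads1, with 9 windows in all since Srebf1 has 3. Windows of Srebf1 and Fasn are shown because both genes were lower in Full Tumor than in Control and followed each other closely across libraries. Of the 3 Srebf1 windows only window 3 is shown, the only one of them with the repeat described next. Counts per gene do not tell which start was used, and a link between the repeat and the levels was not tested. Capitals mark a liver X receptor repeat, searched as 2 copies of GGTNA with any 5 bases between them, and the CCAAT box, both on either strand. The repeat lies in 0.718% of 32851 RefSeq windows and CCAAT in 37.4%. The repeat pattern was written with the known element of Srebf1 in mind, so its match there is no finding. The windows lie at chr11:60210422-60210721 and chr11:120824498-120824797, both on the minus strand.

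Srebf1, window 3: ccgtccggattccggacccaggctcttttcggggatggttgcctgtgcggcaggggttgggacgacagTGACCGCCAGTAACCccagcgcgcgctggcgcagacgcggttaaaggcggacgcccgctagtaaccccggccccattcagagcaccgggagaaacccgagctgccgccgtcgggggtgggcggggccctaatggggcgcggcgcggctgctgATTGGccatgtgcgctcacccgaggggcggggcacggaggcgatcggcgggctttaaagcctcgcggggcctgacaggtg

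Fasn: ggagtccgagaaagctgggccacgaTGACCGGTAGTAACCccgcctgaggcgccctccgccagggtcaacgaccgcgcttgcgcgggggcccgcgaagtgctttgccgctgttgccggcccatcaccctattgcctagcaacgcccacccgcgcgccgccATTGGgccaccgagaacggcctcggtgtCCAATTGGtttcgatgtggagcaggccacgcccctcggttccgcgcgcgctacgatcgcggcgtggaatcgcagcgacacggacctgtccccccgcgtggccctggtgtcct

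The repeat occurred in these 2 of the 9 windows. In Fasn a CCAAT box and its reverse complement overlap. The sterol regulatory element, searched only as TCACNCCAC, is in 1.24% of all windows and in 0 of the 9. Forms of that element with other letters were not searched, so this does not show that the element is absent. The E-box CACGTG, in 7.15% of all windows, was found in Elovl5. These matches describe letters in a window and say nothing of binding in these cells.

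Acly, which makes cytosolic acetyl-CoA from citrate, measured 115, 116 and 192 CPM in Full Tumor, 132, 126 and 220 in Tumor without Myelin, 154, 100.1 and 139 in Myelin Alone and 123, 99.6 and 207 in Control. Library 016 was the highest of its group except in Myelin Alone, and all 4 groups overlapped. The log2 fold change of Full Tumor against Control was -0.03 ± 0.32, with an interval from -0.73 to 0.67. Its sign depended on the fit. Of the variance of log2 CPM of Acly over the 12 libraries, 73.3% lay between mn numbers and 6.27% between groups.

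Acaca, the carboxylase that makes malonyl-CoA, measured 11.8, 8.61 and 10.3 CPM in Full Tumor and 7.09, 5.65 and 8.74 CPM in Tumor without Myelin. Myelin Alone held 10.4, 7.78 and 9.42 CPM, and Control 13.04, 12.2 and 7.21 CPM. Full Tumor was above Tumor without Myelin in each number, though the ranges overlapped, and Control library 016 was far below the other 2 Controls. Tumor without Myelin averaged 7.16 ± 1.55 CPM and Control 10.8 ± 3.16 CPM, a log2 fold change of -0.60 ± 0.29 (interval -1.24 to 0.05). Within numbers that difference was -0.87, -1.10 and 0.27, so number 016 went the other way. Full Tumor against Tumor without Myelin gave 0.52 ± 0.29 (interval -0.12 to 1.16). The interaction, which asks whether the difference with myelin differs between macrophages with and without tumor material, was 0.75 ± 0.41 (interval -0.15 to 1.65) and was not called.

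Fasn, the synthase that builds palmitate, measured 20.1, 23.3 and 21.6 CPM in Full Tumor, 18.0, 41.8 and 29.3 in Tumor without Myelin, 13.2, 30.1 and 29.0 in Myelin Alone and 32.8, 36.8 and 27.6 in Control. All 3 Full Tumor libraries lay below all 3 Control libraries. Among all tested genes, 3.51% were lower in Full Tumor without overlap with Control. Full Tumor averaged 21.7 ± 1.63 CPM and Control 32.4 ± 4.57 CPM (SD, n = 3 each). The log2 fold change was -0.58 ± 0.34 (interval -1.32 to 0.16), and -0.59 ± 0.25 with the block (adjusted p 0.454 in edgeR). In Myelin Alone against Control it was -0.43 ± 0.34, and by number -1.31, -0.29 and 0.07. Full Tumor against Tumor without Myelin gave -0.46 ± 0.34, with number 957 the other way. The pooled myelin effect was -0.44 ± 0.24, lower in 3 of 3 numbers.

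Markers of other cells differed between the same libraries. The summed level of 4 astrocyte markers, nearly all of it Aldoc, an enzyme of glycolysis, was 29.0 to 95.3 CPM in Full Tumor, 65.0 to 111 in Tumor without Myelin, 77.7 to 112 in Myelin Alone and 98.8 to 132 in Control, so that Full Tumor lay below Control without overlap, and edgeR did not call Aldoc in either fit. Gfap, a defining astrocyte marker, was at 0 in 9 of 12 libraries. The sum of 7 neutrophil markers was 14.8 to 60.8 CPM in Full Tumor, 10.3 to 91.4 in Tumor without Myelin, 19.5 to 113 in Myelin Alone and 30.0 to 236 in Control. The highest value was that of Control library 016. That library had the lowest Srebf1, Acaca, Fasn, Scd2 and Elovl5 of the Control libraries. Its Acly, Scd1, Elovl6 and Lpcat3 were the highest of the Control libraries, and its Fads1 lay between the others. With the block, edgeR called 1 of 6 tested neutrophil markers, Mpo, lower in Full Tumor and in Tumor without Myelin than in Control. Mpo averaged 12.8 CPM with a maximum of 111, and was at 0 in 6 of 12 libraries. Ly6g was at 0 in 11 of 12, while S100a8 and S100a9 were at 0 in 0. The part of these markers in the members' values was not tested.

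Scd2 is a stearoyl-CoA desaturase, an enzyme that puts the first double bond into saturated fatty acids, and is the form of that family known for its abundance in mouse brain. It measured 30.2, 42.0 and 69.6 CPM in Full Tumor, 25.8, 37.4 and 45.5 in Tumor without Myelin, 20.4, 36.5 and 32.5 in Myelin Alone and 28.3, 23.5 and 22.5 in Control. Every Full Tumor library was above every Control library, the nearest pair being the libraries of number 957, and the other groups overlapped Control. Higher without overlap were 4.59% of all genes in this comparison. Full Tumor averaged 47.3 ± 20.2 CPM and Control 24.7 ± 3.08 CPM (SD, n = 3 each), a log2 fold change of 0.93 ± 0.33 (interval 0.22 to 1.65, adjusted p 0.967 in edgeR). By number the log2 difference was 0.09, 0.84 and 1.62, so number 957 hardly differed. With the block edgeR gave 0.83 ± 0.26 (adjusted p 0.234), and DESeq2 with the block 0.83 with an adjusted p of 0.0474.

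Without Full Tumor library 016 the Scd2 log2 fold change was 0.54, and without number 016 in the blocked fit 0.43. Tumor without Myelin against Control gave 0.55 ± 0.33, with 2 of 3 numbers higher, and Myelin Alone against Control 0.27 ± 0.33, likewise with 2 of 3 higher. The pooled tumor effect was 0.61 ± 0.23, higher in 3 of 3 numbers, a direction that 16.1% of all genes shared. It was called by DESeq2 with the block (0.55, adjusted p 0.0428), and by the blocked edgeR fit only without Control library 957 (0.75, adjusted p 0.0342).

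Microglia markers were also higher in the tumor groups. The summed level of 5 of them was 57.3 to 121 CPM in Full Tumor, 77.5 to 179 in Tumor without Myelin, 33.2 to 36.3 in Myelin Alone and 11.9 to 23.2 in Control. Most of it was Fcrls, which macrophages can also express, at a mean of 59.5 CPM over the 12 libraries, beside 5.85 for Tmem119, 1.61 for Gpr34, 1.16 for P2ry12 and 0.113 for Siglech, which was at 0 in 8 of 12. In the pooled tumor effect edgeR called 1 of 4 tested microglia markers, Fcrls, with group as the only term, and 2 of 4, Fcrls and Tmem119, with the block. Of the 8 macrophage identity markers, edgeR called 0 with group as the only term in the pooled tumor effect, where their median log2 fold change was 0.29. With the block it called 3 of 8 there, beside 2.25% of all genes. Against Control, the blocked fit called 1 of 8 in Full Tumor and 1 of 8 in Tumor without Myelin, beside 0.813% and 0.745%. The part of these markers in the Scd2 values was not tested.

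Scd1, the desaturase that dominates in liver and fat, was low, with 3.80, 2.74 and 1.65 CPM in Full Tumor, 3.90, 1.83 and 4.19 in Tumor without Myelin, 2.11, 2.59 and 2.55 in Myelin Alone and 2.08, 2.58 and 2.99 in Control. The groups overlapped throughout, and a library held between 32 and 76 counts of the gene. Full Tumor against Control gave a log2 fold change of 0.10 ± 0.44 (interval -0.87 to 1.06). A difference of either sign within that interval could not be told from 0.

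Fads1, a desaturase of the branch that leads to arachidonate, measured 78.5, 90.3 and 108 CPM in Full Tumor, 87.0, 65.0 and 118 in Tumor without Myelin, 103, 71.2 and 96.6 in Myelin Alone and 99.9, 77.5 and 92.4 in Control. Group means lay between 89.9 and 92.2 CPM, closer together than the libraries of any group. Full Tumor against Control gave 0.04 ± 0.23 (interval -0.46 to 0.54). Groups accounted for 0.931% of the variance of Fads1 and mn numbers for 58.5%.

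**Figure D2:**
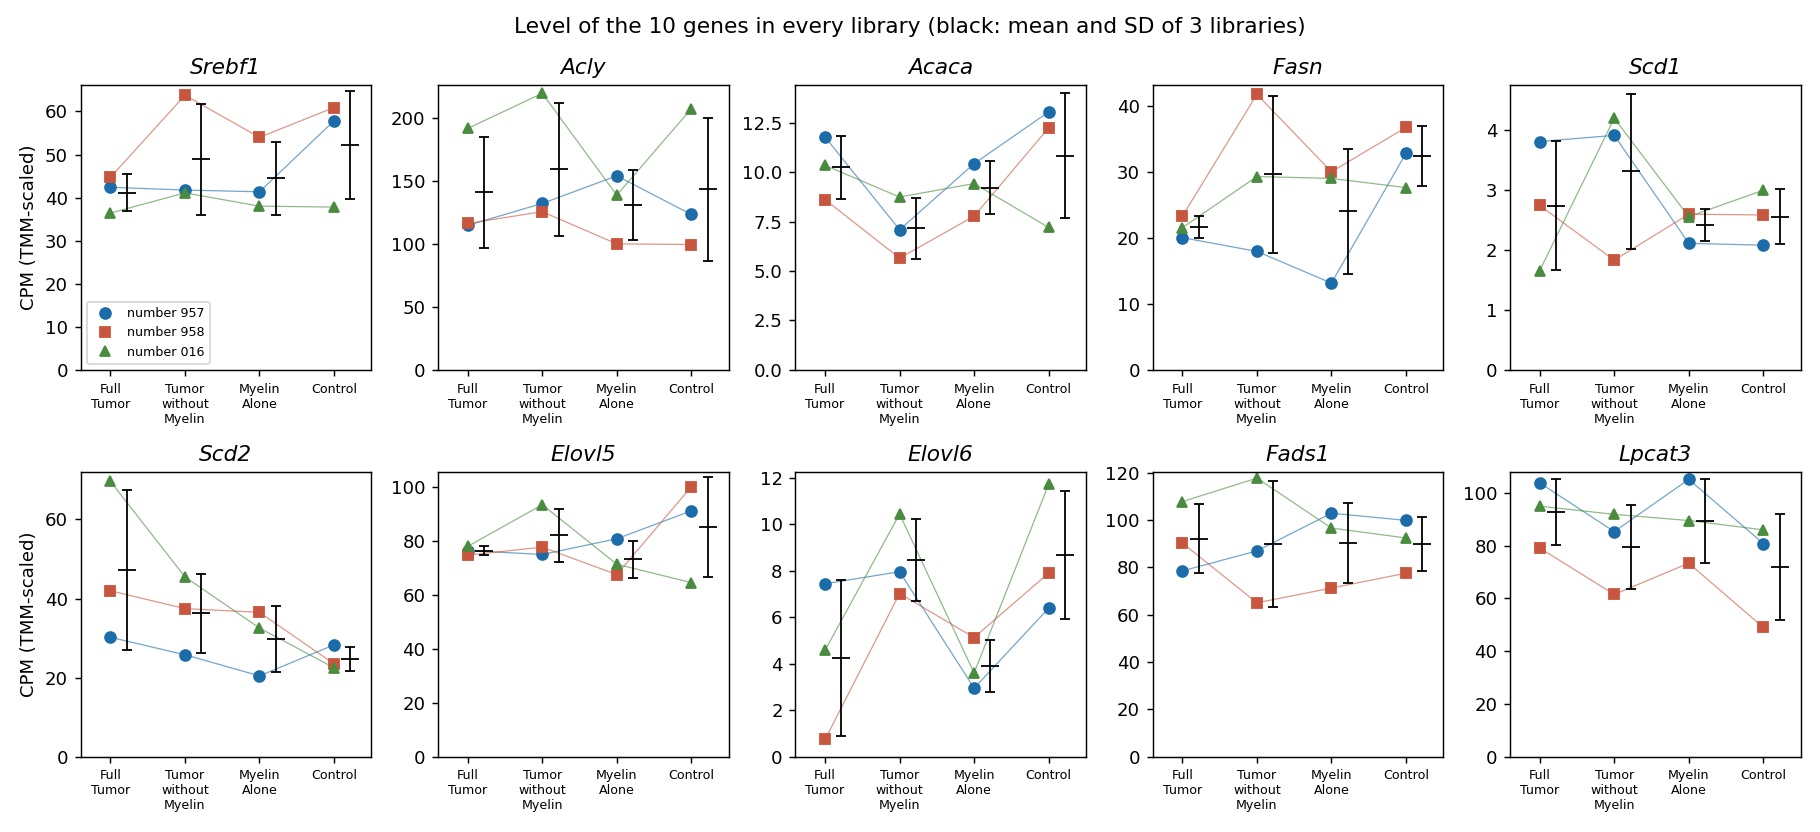
CPM (y axis, from 0) of each of the 10 genes in the 12 libraries, with groups on the x axis, the mn number given by colour and marker and joined by lines, and the mean and SD of 3 libraries in black. Full Tumor lies above Control without overlap for Scd2 and below it for Fasn, Myelin Alone lies below Control for Elovl6, and Full Tumor library 958 has Elovl6 at 0.741 CPM.

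Elovl6, which lengthens palmitate to stearate, measured 7.44, 0.741 and 4.58 CPM in Full Tumor, 7.96, 7.02 and 10.4 in Tumor without Myelin, 2.95, 5.13 and 3.60 in Myelin Alone and 6.39, 7.90 and 11.7 in Control. All Myelin Alone libraries were below all Control libraries, as were 2.57% of tested genes. Full Tumor spread from near Control in library 957 to 13 counts in library 958 (0.741 CPM, exact binomial interval 0.395 to 1.27, counting error only). Myelin Alone averaged 3.89 ± 1.12 CPM and Control 8.67 ± 2.75 CPM (SD, n = 3 each), a log2 fold change of -1.15 ± 0.60 (interval -2.46 to 0.16) that edgeR did not call. By number it was -1.09, -0.61 and -1.67.

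In Full Tumor against Control the Elovl6 log2 fold change was -1.02 ± 0.60, and by number 0.22, -3.24 and -1.34. Without Full Tumor library 958 it was -0.54. Full Tumor against Tumor without Myelin gave -0.99 ± 0.60, lower in 3 of 3 numbers, by 0.10 on the log2 scale in number 957. The pooled myelin effect was -1.07 ± 0.42 (unadjusted p 0.0265 in edgeR), with log2 differences of -0.59, -1.84 and -1.42. Lower in all 3 numbers in the pooled myelin effect were 4 of 10 members, Srebf1, Fasn, Elovl5 and Elovl6, and 15.1% of all genes.

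Elovl5, which lengthens polyunsaturated fatty acids, measured 76.3, 74.6 and 77.9 CPM in Full Tumor, 74.9, 77.6 and 93.3 in Tumor without Myelin, 80.7, 67.4 and 71.3 in Myelin Alone and 91.0, 99.9 and 64.5 in Control. Control was the most spread group and contained the range of Full Tumor. Full Tumor against Control gave -0.16 ± 0.18 (interval -0.54 to 0.23), and number 016 went the other way.

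Lpcat3 attaches polyunsaturated fatty acids to lysophospholipids, which sets how fluid membranes are. It measured 104, 79.1 and 95.02 CPM in Full Tumor, 85.4, 61.5 and 91.9 in Tumor without Myelin, 105, 73.4 and 89.6 in Myelin Alone and 80.9, 49.1 and 86.0 in Control. The ranges of all groups overlapped, and library 958 was the lowest of each group. Within a number, Full Tumor was above Tumor without Myelin, and both Myelin Alone and Tumor without Myelin were above Control. Full Tumor averaged 92.7 ± 12.5 CPM, Tumor without Myelin 79.6 ± 16.0, Myelin Alone 89.4 ± 15.9 and Control 72.0 ± 20.0 (SD, n = 3 each).

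Against Control, the Lpcat3 log2 fold change was 0.36 ± 0.24 in Full Tumor, 0.15 ± 0.24 in Tumor without Myelin and 0.31 ± 0.24 in Myelin Alone. With the block these became 0.39 ± 0.12 (adjusted p 0.251), 0.16 ± 0.12 (adjusted p 0.769) and 0.34 ± 0.12 (adjusted p 0.698) in edgeR, with intervals that left out 0 in Full Tumor and Myelin Alone. By number, Full Tumor exceeded Control by 0.36, 0.69 and 0.14 on the log2 scale. Full Tumor against Tumor without Myelin gave 0.22 ± 0.24, and the pooled myelin effect was 0.27 ± 0.17, or 0.28 ± 0.09 with the block (adjusted p 0.407 in edgeR). The comparisons with Control, and Full Tumor against Tumor without Myelin, give 12 same-numbered pairs. Lpcat3 was higher in 12 of 12, as were 0.634% of all genes. Myelin Alone against the tumor groups was not among these, and there the numbers did not all go one way. The 12 pairs share libraries and are not independent, and Lpcat3 was singled out after its values were seen. Of the variance of Lpcat3, 62.8% lay between mn numbers, 26.7% between groups and 10.5% in the rest. Its promoter window, at chr6:124662854-124663153 on the plus strand, is shown with 4 CCAAT boxes or reverse complements in capitals.

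Lpcat3: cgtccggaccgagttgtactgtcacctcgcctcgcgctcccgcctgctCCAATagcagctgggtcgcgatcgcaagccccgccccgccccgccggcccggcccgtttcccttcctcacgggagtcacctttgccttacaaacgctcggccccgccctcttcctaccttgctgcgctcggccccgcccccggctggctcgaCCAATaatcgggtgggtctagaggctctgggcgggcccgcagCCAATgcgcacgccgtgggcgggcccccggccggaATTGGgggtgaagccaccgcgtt

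Counted over members, Full Tumor was higher than Control in all 3 numbers for 2 (Scd2 and Lpcat3, beside 16.3% of all genes) and lower for 2 (Srebf1 and Fasn, beside 15.1%). Tumor without Myelin was higher than Control in 3 of 3 for 2 members, Acly and Lpcat3, beside 16.3% of genes, and lower for 0, beside 16%. Myelin Alone was higher for 1, Lpcat3, beside 13.6%, and lower for 1, Elovl6, beside 12.2%. Full Tumor was higher than Tumor without Myelin for 3, Acaca, Scd2 and Lpcat3, beside 14.7%, and lower for 2, Acly and Elovl6, beside 14.1%. In the pooled myelin effect 1 member, Lpcat3, was higher in 3 of 3 numbers, beside 16%, and 4 were lower, beside 15.1%. In the pooled tumor effect 2 were higher, Scd2 and Lpcat3, beside 16.1%, and 1 was lower, Fasn, beside 15.1%. Overlap was counted in the comparisons with Control and in Full Tumor against Tumor without Myelin. Besides Scd2 and Fasn in Full Tumor and Elovl6 in Myelin Alone, 0 members there had groups that did not overlap. Overlap of Myelin Alone with the tumor groups was not counted, though Elovl6 was lower in Myelin Alone than in Tumor without Myelin without overlap. Without overlap, 3.19% of genes were higher in Myelin Alone than in Control, 4.25% were higher and 3.44% lower in Tumor without Myelin than in Control, and 2.58% were higher and 2.44% lower in Full Tumor than in Tumor without Myelin.

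Levels per kilobase of annotated exon, which allow genes to be ranked, put Acly first at a mean of 27.2 CPM per kilobase over the 12 libraries. Lpcat3 followed at 25.5, Elovl5 at 22.5 and Fads1 at 18.8 CPM per kilobase. Srebf1 stood at 8.28, Scd2 at 6.32 and Fasn at 2.46 CPM per kilobase. The lowest were Elovl6 at 0.983, Scd1 at 0.562 and Acaca at 0.548 CPM per kilobase. Acly exceeded Lpcat3 in only 5 of 12 libraries and Scd1 exceeded Acaca in 7 of 12, so these neighbours did not differ beyond their spread. Fads1 exceeded Srebf1 in 12 of 12, as did Scd2 over Fasn and Fasn over Elovl6. Exon length was taken over all annotated transcripts, and the cDNA was primed at the poly(A) tail, so values of genes with long transcripts can be understated.

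Across the 12 libraries, Srebf1 and Fasn followed each other most closely among the members. After the mean of each mn number was subtracted from log2 CPM, Pearson's r between them was 0.91 and Spearman's rho 0.96, and r was 0.82 without the 2 libraries farthest from the median of Srebf1. Elovl6 correlated with Srebf1 at r = 0.63 (rho 0.59). Lpcat3 ran opposite to Srebf1 at r = -0.71 (rho -0.67) and to Fasn at r = -0.67 (rho -0.70), and without the 2 farthest libraries these were -0.56 and -0.61. Scd2 and Srebf1 were nearly unrelated, at r = -0.11. The values are descriptions over 12 libraries in which genes share depth, library quality and the centring.

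**Figure D3:**
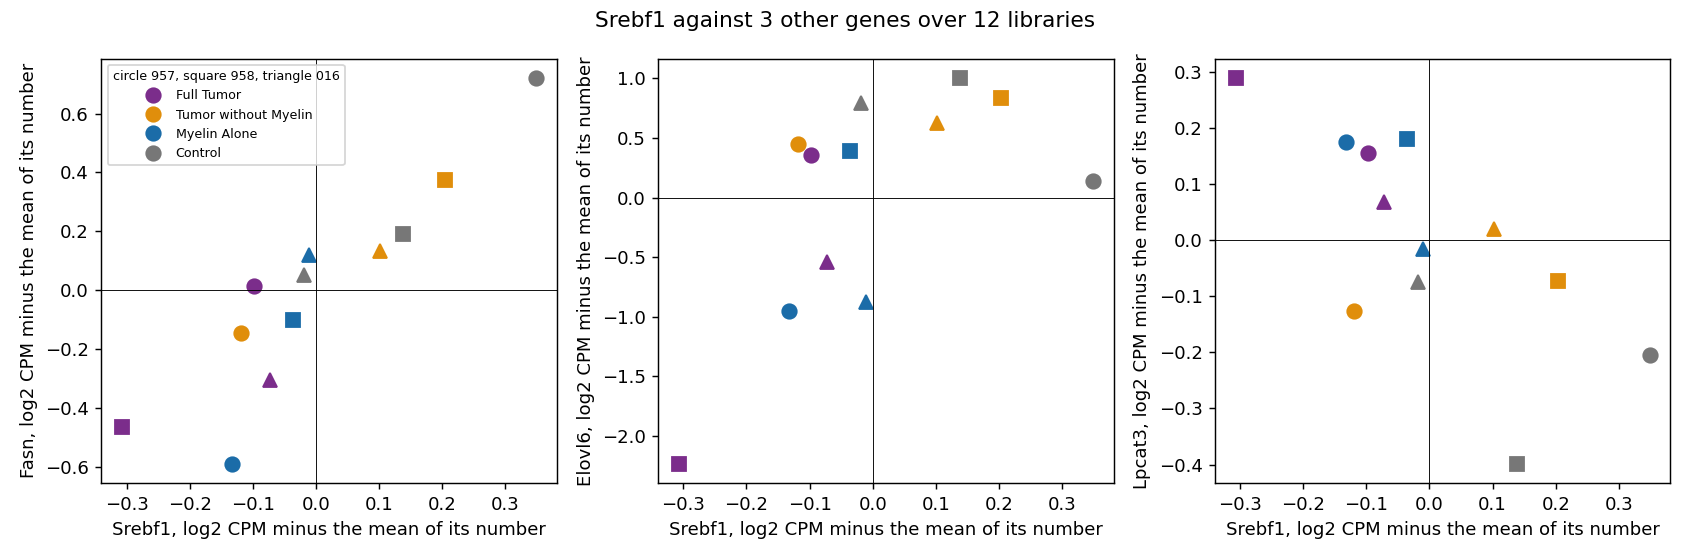
Log2 CPM of Fasn, Elovl6 and Lpcat3 (y axes) against Srebf1 (x axis) in the 12 libraries, each value minus the mean of its mn number, with colour for the group and marker shape for the number. Fasn follows Srebf1 (r = 0.91), Elovl6 less so (0.63) with Full Tumor library 958 far below the rest, and Lpcat3 runs opposite (-0.71).

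The 5 tested genes outside the list whose centred log2 CPM was most like that of Srebf1 were 4632415L05Rik (r = 0.98), Rnase6 (0.92), Dleu2 (0.90), Vezf1 (0.89) and Mark2 (0.89). For Lpcat3 they were Rpain (0.95), Lrpap1 (0.94), Atp5a1 (0.93), Rab38 (0.93) and Exosc9 (0.93). They are the highest of 13414 tested genes and describe these libraries only.

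The rest of the pathway was given by 40 other genes of fatty acid synthesis and its control, of which 33 passed the filter, and 16 genes of phospholipid synthesis and remodeling, all of which passed. With group as the only term, edgeR called 0 of either list in any comparison. In Full Tumor against Control, 2 of 33 and 1 of 16 had an unadjusted p under 0.05. The medians there were -0.06 and -0.08, beside 0.00 over all genes. With the block, 1 of 33 was called in the pooled myelin effect, where 0.112% of genes were, and 2 of 33 and 1 of 16 in the pooled tumor effect, where 2.25% were.

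Insig1, which holds SREBP precursors back, fell in the pooled myelin effect in the blocked fit, by 0.92 ± 0.13 on the log2 scale (adjusted p 0.0186 in edgeR), lower in 3 of 3 numbers. It averaged 38.5 ± 19.1 CPM in Full Tumor and 31.2 ± 9.55 CPM in Myelin Alone, against 62.1 ± 19.4 CPM in Tumor without Myelin and 64.5 ± 8.75 CPM in Control. Nr1h3, which encodes LXR alpha, rose in the pooled tumor effect in that fit, by 0.65 ± 0.13 (adjusted p 0.0305 in edgeR), with 150 ± 66.4 CPM in Full Tumor and 154 ± 64.0 in Tumor without Myelin, against 105 ± 28.7 in Myelin Alone and 78.9 ± 8.88 in Control. Hacd4, of the dehydratase family of the elongation cycle, rose by 0.39 ± 0.07 (adjusted p 0.0139) and Pcyt1a, a regulatory enzyme of phosphatidylcholine synthesis, fell by 0.37 ± 0.08 (adjusted p 0.0335) in the same edgeR comparison. None of these 4 was called with group as the only term, nor in the blocked fit without number 957 or without number 958, and Hacd4 and Pcyt1a were not called without number 016. With a single library left out of the blocked fit, Insig1 was called in 5 of 12 fits, Nr1h3 in 3, Hacd4 in 7 and Pcyt1a in 0.

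Fads2, the desaturase upstream of Fads1, averaged 5.42 ± 3.68 CPM in Full Tumor, 9.19 ± 6.59 in Tumor without Myelin, 6.34 ± 6.41 in Myelin Alone and 9.40 ± 7.10 in Control, and its SD was of the order of its mean. Me1, a source of NADPH, averaged 18.2 ± 1.60 CPM in Full Tumor, 13.5 ± 2.59 in Tumor without Myelin, 16.5 ± 1.43 in Myelin Alone and 18.0 ± 2.59 in Control. Acss2, which makes acetyl-CoA from acetate, lay between 4.12 and 5.24 CPM by group mean. Elovl1, which elongates long saturated chains, lay between 451 and 498 CPM, and Mboat7, which places arachidonate in phosphatidylinositol, between 52.1 and 61.4 CPM. None of these 5 was called in either edgeR fit.

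For context, 2 neighbouring sets of lipid genes were measured in the same fits. In Full Tumor against Control, the 19 tested sterol synthesis genes had a median log2 fold change of -0.62, with 18 lower, and the blocked edgeR fit called 5 lower, where it called 0.813% of all genes in either direction. In Myelin Alone against Control the median was -0.71, with 19 of 19 lower and 2 called, beside 0.0373% of all genes, and in Tumor without Myelin -0.19, with 14 lower and 0 called, beside 0.745%. The 8 LXR targets outside the members had medians of 0.61 in Full Tumor, 0.22 in Tumor without Myelin and 0.42 in Myelin Alone, with 4, 3 and 1 called higher in the blocked fit, beside the same shares of all genes. With group as the only term, edgeR called 0 of either list in every comparison. Sqle, the squalene epoxidase, had a log2 fold change of -1.47 ± 0.14 in Full Tumor against Control with the block (adjusted p 0.000644 in edgeR, against 0.182 with group as the only term). Abca1, the cholesterol exporter, had 3.07 ± 0.43 in the same fit (adjusted p 0.0071, against 0.572 with group as the only term). Without number 957 or without number 958, the blocked fit called neither, and without number 016 it called both. The difference between these sets and the 10 genes was not tested.

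**Figure D4:**
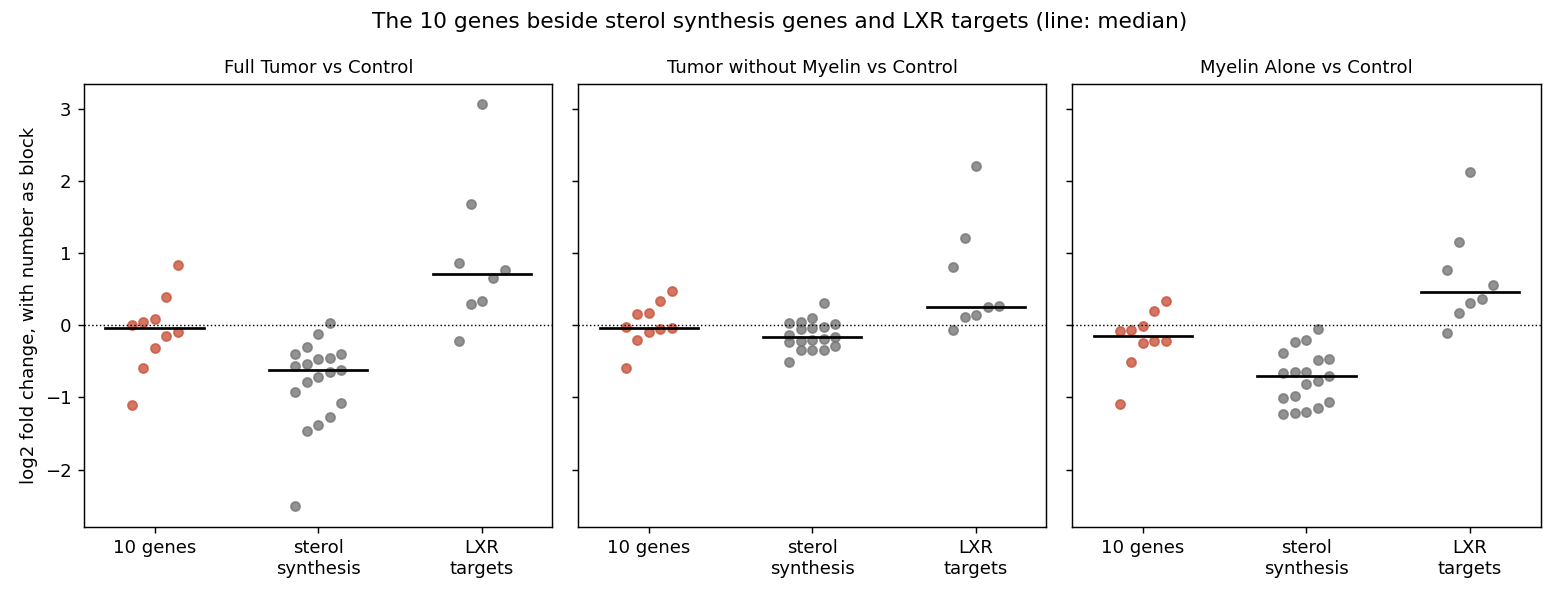
Log2 fold change (y axis, edgeR with the mn number as a block) of each of the 10 genes, of 19 sterol synthesis genes and of 8 LXR targets, in the 3 comparisons with Control, 1 point per gene and a line at the median. The 10 genes have medians of -0.04 in Full Tumor, -0.03 in Tumor without Myelin and -0.15 in Myelin Alone. In Myelin Alone 8 of 10 lie below 0, beside 6458 of 13414 tested genes. The sterol genes lie below 0 in Myelin Alone and, for 18 of 19, in Full Tumor, and most LXR targets lie above 0.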

How the data were processed

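Messenger RNA was measured in 12 libraries. The authors deposited unnormalized whole-number counts for each gene, on mm10 per the submitters' processing notes. Aligner, counter and strand setting were not given in the sources used here. Levels (CPM), log2 fold changes and tests were computed here. The members, gene lists and tests were chosen with earlier results of these data known.

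Counts were tested with edgeR 4.0.16 in R 4.3.3 (filterByExpr, TMM factors 0.965 to 1.06, glmQLFit, glmQLFTest, two-sided, Benjamini-Hochberg over 13414 genes, threshold 0.05), on all 12 libraries with group as the only term. Standard errors were taken from each log2 fold change and its F statistic (size divided by root F), and intervals (95%) use the fit's t distribution. The tested genes held 99.9% of counts. No 2 libraries were identical. The fits were also run on simulated counts with known fold changes in Full Tumor and the spread of the blocked fit. The share recovered is not given here, so the lack of calls among members cannot be read against it. All members are named. Of the 2 pathway lists, genes called in either fit and Insig1, Nr1h3, Acss2, Me1, Fads2, Elovl1 and Mboat7 are named, and of the sterol and LXR lists Sqle and Abca1.

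Same-numbered libraries' deviations from group means correlated above 0.1 in 18 of 18 pairs (0.120 to 0.631, median 0.329) on edgeR's default log2 CPM with a prior count of 2, and 11 of 12 libraries correlated best with their own number. With a prior count of 0.5, which was computed first, 17 of 18 pairs passed and the lowest was 0.0887. The prior count of 2 was chosen after that was seen, so the reading of the numbers as pairs is borderline for 1 pair. The blocked fit is therefore given as an alternative throughout. The common biological coefficient of variation came to 0.414 (8 residual degrees of freedom), against 0.266 (6) in the blocked fit.

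Exon lengths are from GENCODE M21 and promoter windows from RefSeq on GRCm38.p6. Alternatives were DESeq2 1.42.0, limma-voom 3.58.1, other scalings, no filter, the block, and leaving out each library or number. The markers Mog, Cldn11, Mal, Ermn, Aqp4, Sall1, Cd3e, Cd3d, Cldn5, Cidec, Plin1 and Lep were not analysed here, and some other listed markers are not reported. Summed levels of the other marker lists, in CPM over all libraries, were 6.11 to 25.3 for oligodendrocyte precursor or tumor progenitor, 0 to 1.94 for T cell, 0 to 3.82 for endothelial and 0 to 0.443 for adipocyte genes.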

Additional observations from a re-analysis of the deposited data

How the results depend on the processing

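The 28 member log2 fold changes given above were recomputed under 35 alternatives, 980 values, of which 951 kept their sign and 3 passed the threshold, all of Scd2. They were picked from 70 after all 70 had been seen. Over all 70, 42 changed sign under at least 1 alternative (266 of 2450 values), so signs of values near 0 carry little. The 12 values of Insig1, Nr1h3, Hacd4, Pcyt1a, Sqle and Abca1 kept their sign in 420 of 420. The calls of these genes given above for the blocked fit did not hold without number 957 or without number 958. Without number 957 and number 958 the adjusted p in the blocked fit was 0.934 and 0.153 for Insig1, 0.262 and 0.376 for Nr1h3, 0.167 and 0.184 for Hacd4, 0.148 and 0.257 for Pcyt1a, 0.0564 and 0.0727 for Sqle and 0.154 and 0.145 for Abca1. Without number 016 it was 0.0825 for Hacd4 and 0.262 for Pcyt1a. The calls held there for Insig1 (adjusted p 0.0486 in edgeR), Nr1h3 (0.000449), Sqle (0.0017) and Abca1 (6.94e-05). With a single library left out of the blocked fit, Sqle and Abca1 were called in 12 of 12 fits. Acly in Full Tumor against Control was 0.00071 with the replicate block and 0.0027 with limma-voom, and 0.033 and 0.066 in the blocked fit without number 957 and 016. Without single libraries it ran from -0.32 to 0.32. In the same comparison, Scd1 was -0.34 without number 957 and -0.24 to 0.46 without single libraries. Elovl5 was -0.37 to 0.011 without single libraries. Fads1 was -0.021 with library totals alone, -0.021 with the block and library totals, -0.067 without number 958, -0.044 without number 016 and -0.13 to 0.18 without single libraries. Scd2 in Myelin Alone against Control was -0.044 without number 958 and -0.058 to 0.58 without single libraries. Lpcat3 in Tumor without Myelin against Control was -0.067 to 0.29 without single libraries. In the blocked leave-outs with 1 group at 2 libraries, that group is assumed to vary like the others.

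Members called numbered 1 (Scd2) in DESeq2 with the block in Full Tumor against Control and in the pooled tumor effect, 0 to 1 without single libraries in the pooled tumor effect, and 0 in all other settings and comparisons. The replicate block changed no other call of a member. All-gene calls are given in the order Full Tumor against Control, Tumor without Myelin against Control, Myelin Alone against Control, Full Tumor against Tumor without Myelin, pooled myelin effect, pooled tumor effect, and were 0 for the interaction in every setting. They numbered 0, 0, 0, 0, 0 and 10 in the fit on group, 109, 100, 5, 0, 15 and 302 with the block, and 101, 93, 6, 0, 21 and 300 with the block and library totals. DESeq2 gave 43, 54, 7, 5, 17 and 174, and with the block 343, 316, 64, 13, 126 and 617. Without the low-count filter edgeR gave 3, 1, 0, 0, 2 and 48. The pooled tumor effect alone had calls with DESeq2 size factors in edgeR (7), library totals (2) and limma-voom (6). In the blocked fit, leaving out number 957 gave 1, 6, 0, 0, 0 and 29, number 958 gave 4, 4, 0, 0, 0 and 30, and number 016 gave 183, 153, 9, 0, 26 and 259. Without single libraries, both fits together spanned 0 to 107, 0 to 106, 0 to 7, 0 to 1, 0 to 24 and 0 to 293. The causes were not tested. Counts in a library went as low as 13 for Elovl6 and 32 for Scd1.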
